A study of Mus musculus with 24 samples.

Results

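Jarid2 and Rcor1 encode cofactors of chromatin repression, and both messenger RNAs carry sites for the microRNA miR-155. All peaks that the authors' deposited table assigns to either gene symbol were taken, 39 of 14634 in all, of which 19 lie in the 3' untranslated region (3' UTR) of Jarid2 and 20 in that of Rcor1. The peaks mark where Argonaute 2 (AGO2), which binds messenger RNA under the guidance of a microRNA, was crosslinked to RNA and recovered with a custom rabbit antibody before sequencing (HITS-CLIP). The libraries came from CD4+ T cells of C57BL/6 mice, 12 labelled miR-155 KO and 12 labelled WT. The labels do not describe how the knockout allele was made. All cells were taken from spleen and lymph nodes and cultured for 4 days with antibodies to CD3 and CD28 at 1 µg/mL and IL-2 at 20 U/mL. In each genotype 6 libraries carried one 3' linker and 6 the other. KO replicates 1 to 6 carried linker 1 and WT replicates 1 to 6 linker 2, with the reverse in the later replicates.

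Jarid2 is an accessory subunit of Polycomb repressive complex 2 (PRC2), which methylates histone H3 on lysine 27, and it helps to bring the complex to its target genes. Rcor1, also called CoREST, is the scaffold that joins the histone demethylase LSD1 to histone deacetylases. MiR-155 rises when lymphocytes are activated. An AGO protein presents the seed of a microRNA, bases 2 to 8 from its 5′ end, for pairing with target RNA.

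The deposited sequences of 6 of the 39 peaks (15.4%) held a match to the seed of miR-155-5p, beside 5.64% of all peaks, counting every match class used here. An 8mer pairs with bases 2 to 8 and has an A opposite base 1, a 7mer-m8 lacks that A, and a 7mer-A1 has it but lacks base 8. A 6mer pairs with bases 2 to 7 and an offset 6mer with bases 3 to 8. The mature sequence is from RefSeq (GRCm38.p6), with the seed in capitals. The stretches of up to 30 nt from the peaks are shown so that the called sites can be set beside the uncalled ones of the same 3' UTR. Capitals mark the match.
miR-155-5p: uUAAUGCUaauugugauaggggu
Jarid2 peak 2, 8mer: gattttgttttAGCATTAAactgttcaagt
Jarid2 peak 11, 8mer: tcacatcAGCATTAAtctttgtttcc
Rcor1 peak 7, 7mer-A1: gtattgcatatGCATTAAaagtttgtttt
Rcor1 peak 18, 7mer-m8: tgaatgtccatAGCATTAtaatcgcttag
Rcor1 peak 12, 6mer: agccaaacagtGCATTAcactaactgga
Rcor1 peak 15, offset 6mer: ggagtgggtAGCATTccattatgtag

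Jarid2 (ENSMUSG00000038518.15) spans chr13:44729474-44921643 and Rcor1 (ENSMUSG00000037896.17) spans chr12:111039351-111115901 in GRCm38. The Jarid2 matches lie at chr13:44920093-44920100 and chr13:44920866-44920873, on the plus strand. The Rcor1 matches lie at chr12:111114627-111114633 (peak 7), chr12:111115145-111115150 (peak 12), chr12:111115487-111115492 (peak 15) and chr12:111115736-111115742 (peak 18), also on the plus strand. All are in the 3' UTR part of the last exon, exon 18 of 18 in Jarid2 and exon 12 of 12 in Rcor1. In the longest annotated 3' UTRs, both 8mers of Jarid2 and the 7mer-A1, 7mer-m8 and 6mer of Rcor1 lay inside a peak. Of the 3 offset 6mers of Rcor1, 1 lay inside a peak. Matches of these classes elsewhere in either 3' UTR were not found.

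All read numbers are the authors' pooled and scaled reads per genotype, recovered from their log2 columns, with no value per library and hence no SD or n. The ratio is the authors' deposited log2 ratio, WT over KO, so a positive value means fewer reads in the knockout. It includes a pseudocount of 1, so changes of sparsely read peaks are understated, and no fold is given for a peak listed at 0. The p is the authors' deposited p-value, with a Benjamini-Hochberg adjustment made here across the 14634 peaks and calls at an adjusted p below 0.05. Reads at a peak also depend on how much of the transcript the cells hold, which was not analysed here. In such bulk material fewer cells of a type and less RNA per cell cannot be told apart. All 6 marker genes looked for in CD4+ T cells (Cd4, Cd3e, Cd3g, Cd28, Il2ra and Cd69) had peaks. No peak is listed for the 9 marker genes of CD8+ T cells, B cells and myeloid cells. Markers could be looked for only as AGO2 peaks in 3' UTRs, not as expression. A gene without a peak may still be expressed, so these counts do not measure how pure the cells were. The 3' UTR peaks of all genes summed to 374126 scaled reads in KO cells and 371088 in WT cells.

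In miR-155 KO cells 3 of the 39 peaks were lower than in WT cells, peak 2 of Jarid2 and peaks 7 and 18 of Rcor1, and 0 were higher. Over all 14634 peaks, 0.574% were called lower and 0.0273% higher in the knockout. At an unadjusted p below 0.05, 5 of the 39 peaks were lower and 0 higher, beside 2.72% and 1.48% of all peaks. The additional pair, peaks 8 and 14 of Rcor1, held no miR-155 match but a match to miR-27 in peak 8 and to miR-30 in peak 14. Peak 8 had 16.6 scaled reads in KO cells and 28.8 in WT cells (p = 0.0384 in the authors' deposited table). Peak 14 had 19.0 and 31.7 (p = 0.0476 in the authors' deposited table), and neither passed after adjustment.

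**Figure D1:**
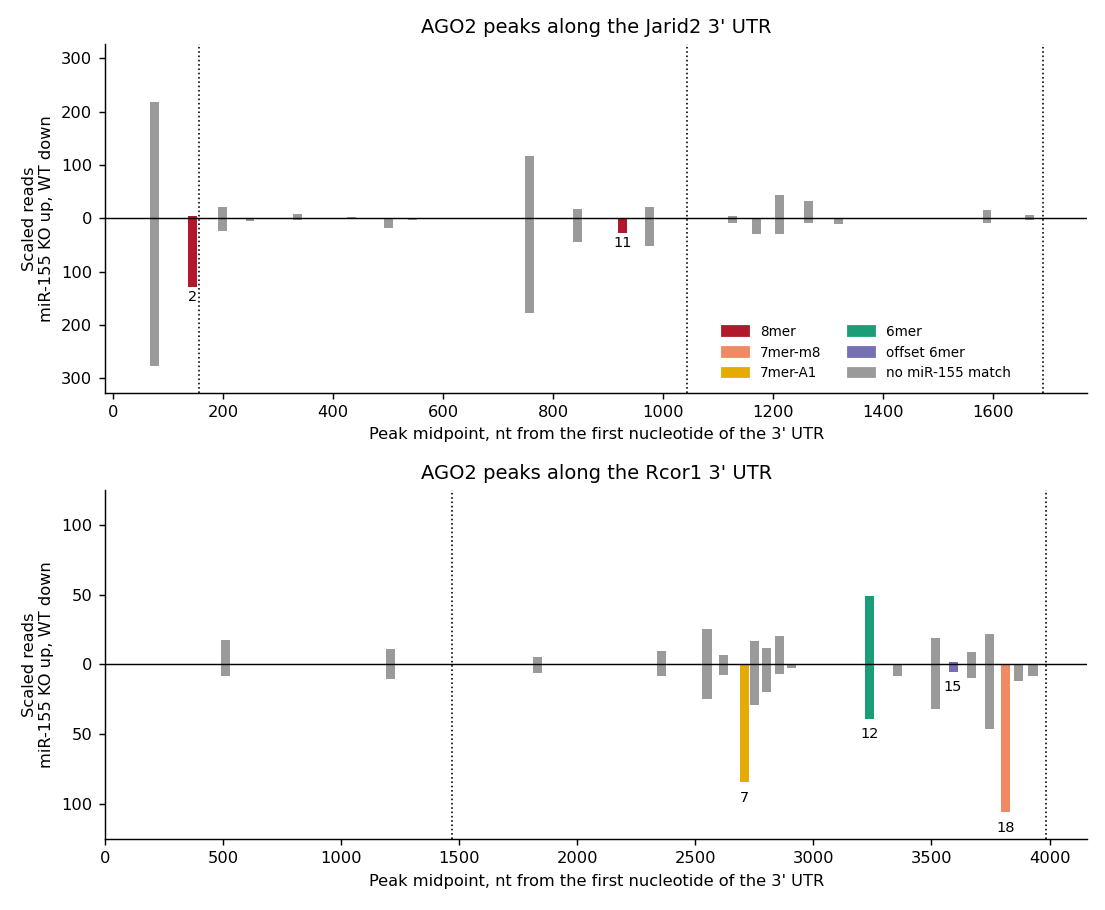
Scaled reads of each AGO2 peak (y axis, miR-155 KO drawn upward and WT downward) by its distance from the start of the 3' UTR in nt (x axis), for Jarid2 above and Rcor1 below. Colours give the longest miR-155 match, numbers name the peaks with a match, and dotted lines are the annotated 3' UTR ends. The bars of Jarid2 peak 2 and Rcor1 peaks 7 and 18 are long in WT and short or missing in KO, while that of Rcor1 peak 12 is of similar length in both.

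Both Jarid2 sites are 8mers, yet they differed in how much AGO2 they held and in the evidence for a change. Peak 2 had 4.46 scaled reads in KO cells and 129 in WT cells. Its log2 ratio in the authors' deposited table was 4.57, and the fold without a pseudocount was 28.9, WT over KO (adjusted p = 2.22e-10). Peak 11 was listed at 0 in KO cells and had 27.6 scaled reads in WT cells, a deposited log2 ratio of 4.84 that did not pass (deposited p = 0.126, adjusted p = 1.00). Peak 11 thus had the highest ratio of the 19 Jarid2 peaks, peak 2 the next, and only peak 2 was called.

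The 8mers of Jarid2 start 773 nt apart. That of peak 2 begins at nt 141 of the 3' UTR and that of peak 11 at nt 914. GENCODE M21 lists 3' UTRs of 156, 1043 and 1691 nt for Jarid2. The site of peak 2 is in all of them and ends 8 nt before the end of the shortest one, past which the peak itself (nt 127 to 162) runs, while that of peak 11 is in the longer pair only. Within 30 nt on each side, 70.0% of bases were A or U around the peak 2 site and 51.7% around the peak 11 site. RNAduplex gave an optimal duplex energy with miR-155-5p of -11.2 kcal/mol for the sequence of peak 2 and -13.3 kcal/mol for that of peak 11, with all 8 bases of the match paired in both. The less occupied site therefore had the lower predicted energy of the pair.

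Among all peaks listed at 0 in KO cells, 44 others had wild-type reads within 20% of those of Jarid2 peak 11, and 14 of them were called. Of these 44, 9 held an 8mer. For these 9 the deposited p was between 6.12e-10 and 0.000788, and 6 were called. Peak 11 thus had a larger deposited p than each of those 9 peaks of the same site class and about the same pooled reads. Its deposited p was the 44th smallest of the 67 8mer peaks of the table, while that of peak 2 was the fifth smallest.

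Rcor1 held 2 sites of 7 nt, and both had many wild-type reads and none in the knockout. Peak 18, the 7mer-m8, was listed at 0 in KO cells and had 105.9 scaled reads in WT cells (deposited log2 ratio 6.74, deposited p = 2.55e-40, adjusted p = 1.87e-36). Peak 7, the 7mer-A1, was listed at 0 in KO cells and had 84.5 scaled reads in WT cells (deposited log2 ratio 6.42, deposited p = 2.52e-08, adjusted p = 1.19e-05). These were the most-read and the next most-read of the 20 Rcor1 peaks in WT cells. Peak 18 had the smallest deposited p of the 94 7mer-m8 peaks of the table. The ratio of each ranked 3 in its class, among the 94 7mer-m8 and the 104 7mer-A1 peaks.

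The Rcor1 sites of peaks 7 and 18 start 1109 nt apart, at nt 2712 and 3821 of a 3' UTR of 3986 nt. The other annotated 3' UTR of Rcor1, of 1469 nt, ends before every one of its 6-nt and 7-nt matches that lay in a peak. Around the site of peak 7, 76.7% of bases within 30 nt on each side were A or U, against 66.7% for peak 18. The predicted duplex energy was -16.1 kcal/mol for peak 7, a value that 2.08% of all peaks reached, and -11.6 kcal/mol for peak 18. All 7 bases of each match were paired. Within this pair, the site with the smaller deposited p had the less favourable energy. The uncalled Rcor1 peaks 12 and 15 had less favourable energies than both, -10.4 and -7.1 kcal/mol.

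The shorter matches in the same Rcor1 3' UTR were not called. Peak 12, with the 6mer, had 49.3 scaled reads in KO cells and 38.8 in WT cells, a deposited log2 ratio of -0.34 (deposited p = 0.626, adjusted p = 1.00). It was the most-read Rcor1 peak in the knockout and the fourth in WT cells. Peak 15, with the offset 6mer, had 1.76 and 5.09 scaled reads in KO and WT (deposited log2 ratio 1.14, deposited p = 0.235, adjusted p = 1.00). The 6mer of peak 12 starts 518 nt after the site of peak 7 and 591 nt before that of peak 18. Its predicted energy was -10.4 kcal/mol, and 58.3% of the surrounding bases were A or U. For the offset 6mer these were -7.1 kcal/mol and 63.3%.

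**Figure D2:**
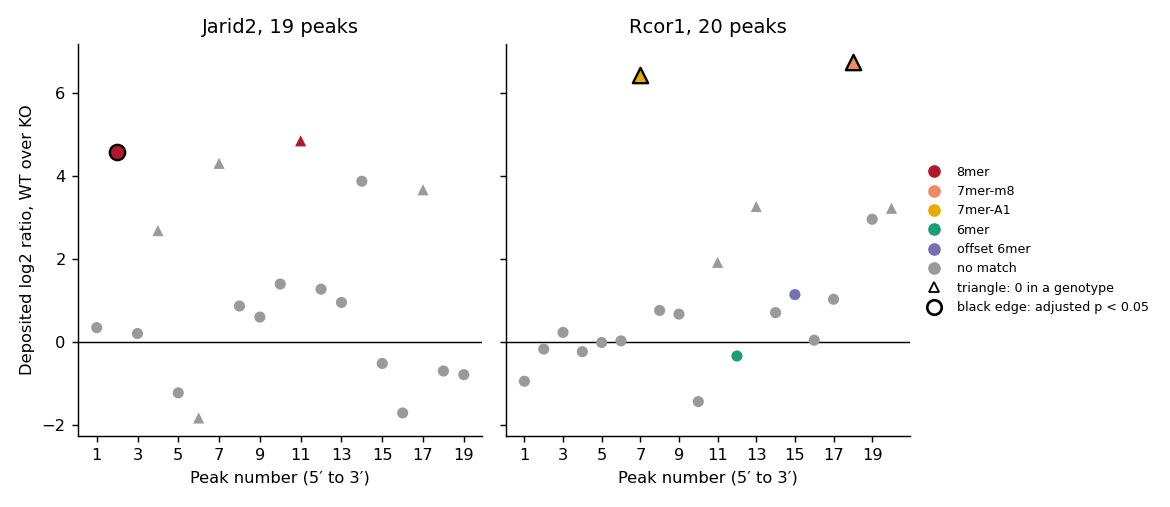
Deposited log2 ratio of WT over KO (y axis) for each peak in order along the 3' UTR (x axis), Jarid2 left and Rcor1 right. Colours give the miR-155 match, triangles are peaks listed at 0 in a genotype, and black edges mark an adjusted p below 0.05. The 4 peaks with an 8-nt or 7-nt match lie highest in their genes, from 4.57 to 6.74, and the 6mer of Rcor1 lies at -0.34.

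Across the table the called share was higher for longer matches. Of 67 peaks with an 8mer 31.3% were called lower in the knockout, of 94 with a 7mer-m8 18.1% and of 104 with a 7mer-A1 20.2%. The shares were 7.84% of 102 6mer peaks and 0.469% of 213 offset 6mer peaks. A 6mer-A1, which pairs with bases 2 to 6 and has the A, was in no peak of either gene, and 0.813% of its 246 peaks were called. The median deposited log2 ratio reached 3.66 in 8mer peaks, 2.98 and 2.67 in 7mer-m8 and 7mer-A1 peaks, 1.17 in 6mer peaks and 0.29 in offset 6mer peaks. Both Jarid2 sites and both 7-nt Rcor1 sites lay above the median of their class, as did the offset 6mer, while the 6mer of Rcor1 lay below it, at rank 86 of 102. In KO cells 73.1% of 8mer peaks are listed at 0, and there the ratio follows the WT reads.

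**Figure D3:**
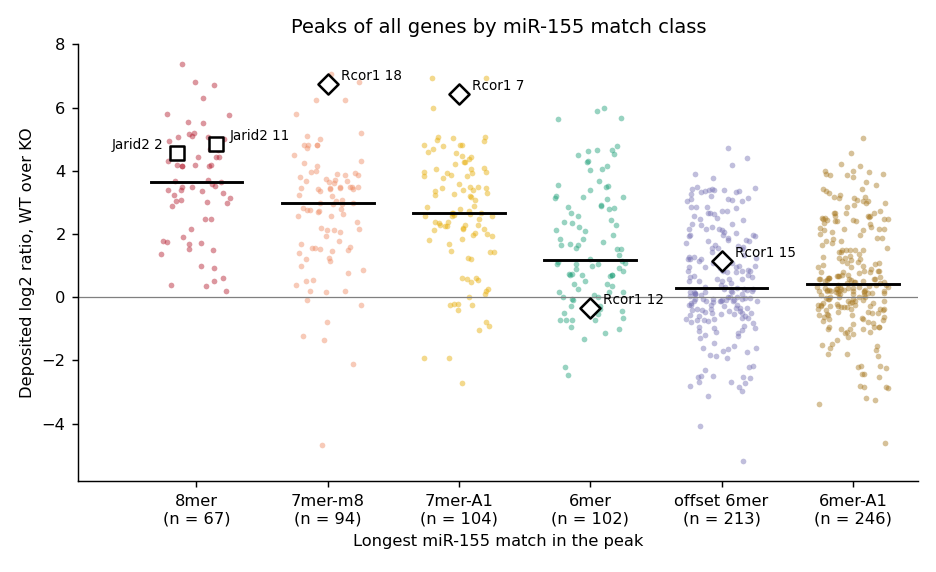
Deposited log2 ratio of WT over KO (y axis) of every peak in the table with a miR-155 match, by its longest match (x axis); bars are class medians. Open squares are Jarid2 peaks and open diamonds Rcor1 peaks. The Jarid2 8mers lie at 4.57 and 4.84, above the 8mer median of 3.66, and the Rcor1 6mer lies at -0.34, below the 6mer median of 1.17.

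Having 2 called sites in one 3' UTR was uncommon. Of the 242 genes with at least 1 peak holding a 7-nt or 8-nt site, 21 had at least 2 such peaks. Rcor1 was the 1 gene among these 21 with 2 called site peaks. Jarid2 was among the 10 with a single called one, and the remaining 10 had none. By class, 18.1% to 31.3% of the peaks with a 7-nt or 8-nt site were called. Whether 1 gene of 21 is unusual at such shares was not tested. Of the 9 others with a single called site peak, 6 had more reads in WT cells at each uncalled site peak, as Jarid2 had (2700078E11Rik, Lpin1, Mtpn, Picalm, Tspan14 and Zdhhc21). Mtpn peak 12, for example, had 12.8 in KO and 51.2 in WT, and Picalm peak 6 had 32.2 in KO and 86.9 in WT. In the remaining 3, Adam10, Brwd3 and E2f2, the uncalled site peak had more reads in KO cells. Adam10, a membrane protease gene, had 0.718 scaled reads in KO cells and 47.5 in WT cells at the 7mer-A1 of peak 6 (adjusted p = 7.07e-06). At the 7mer-A1 of its peak 1 it had 5.60 in KO and was listed at 0 in WT. Brwd3, which encodes a bromodomain protein, had 18.6 scaled reads in KO cells and 95.4 in WT cells at the 7mer-A1 of peak 6 (adjusted p = 0.00742). At the 7mer-A1 of its peak 5 it had 22.6 in KO and 18.9 in WT. E2f2, a transcription factor gene of the cell cycle, was listed at 0 in KO cells with 53.2 in WT cells at the 8mer of peak 3 (adjusted p = 0.00117). At the 7mer-A1 of its peak 7 it had 6.93 in KO and 3.62 in WT. The genes described here singly beside Jarid2 and Rcor1 were chosen after their values were seen.

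Most AGO2 reads on Jarid2 were at peaks without a miR-155 match in both genotypes. Peak 1 was the most-read peak, with 218 scaled reads in KO cells and 277 in WT cells (deposited log2 ratio 0.34, deposited p = 0.677). It holds a match to miR-19. Peak 9, with a match to miR-29, had 117 scaled reads in KO cells and 177 in WT cells (deposited log2 ratio 0.60, deposited p = 0.181). Peak 12 had 21.3 in KO and 52.7 in WT, peak 10 had 16.7 and 45.5, and peak 3 had 21.3 and 24.6. Peaks 15 and 16 leaned the other way, with 43.8 and 32.3 scaled reads in KO cells against 30.3 and 9.19 in WT cells (deposited p = 0.211 and 0.190). None of these 7 peaks passed the test.

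A few Jarid2 peaks without a miR-155 match had ratios nearly as high as the 8mers, but none was called. Peak 7 was listed at 0 in KO cells and had 18.7 scaled reads in WT cells (deposited log2 ratio 4.30, deposited p = 0.0549). Peak 14 had 1.11 in KO and 29.9 in WT (deposited log2 ratio 3.87, deposited p = 0.495). Peak 17 was listed at 0 in KO with 11.7 in WT, and peak 4 likewise with 5.41. Peak 6 was listed at 0 in WT cells and had 2.55 in the knockout. Peaks 5, 8, 13, 18 and 19 had 1.27 to 16.4 scaled reads in KO and 2.93 to 9.74 in WT.

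On Rcor1 the peaks without a 7-nt site were less read in WT cells than those with one, and none was called. In KO cells they held all of the gene's reads, since the 7-nt site peaks are listed at 0 there. Peak 5 had 25.3 scaled reads in KO and 25.1 in WT (deposited log2 ratio -0.01). Peak 17, next in WT reads after the site peaks, had 22.0 in KO and 46.0 in WT (deposited log2 ratio 1.03, deposited p = 0.827). Peak 10 had 20.3 in KO and 6.88 in WT (deposited log2 ratio -1.43, deposited p = 0.125). Peaks 11, 13 and 20 were listed at 0 in KO cells, with 2.77, 8.58 and 8.30 in WT cells, and peak 19 had 0.634 in KO and 11.7 in WT. Peaks 1, 2, 3, 4, 6, 9 and 16 had 5.23 to 17.2 scaled reads in KO and 6.30 to 19.5 in WT.

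**Figure D4:**
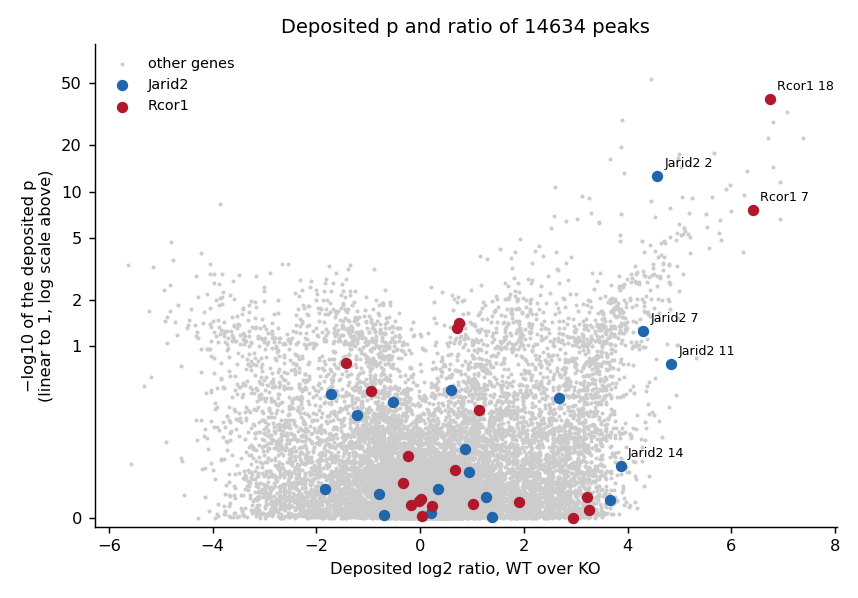
Deposited p (y axis, −log10, linear up to 1 and logarithmic above) against the deposited log2 ratio of WT over KO (x axis) for all 14634 peaks, with Jarid2 in blue and Rcor1 in red. Rcor1 peaks 18 and 7 and Jarid2 peak 2 stand at the upper right, while Jarid2 peaks 7, 11 and 14 have ratios from 3.87 to 4.84 and a deposited p above 0.05.

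Summed over all peaks, Jarid2 had 514 scaled reads in KO cells and 867 in WT cells, and Rcor1 had 226.7 in KO and 473 in WT. The 7-nt and 8-nt site peaks held 0.867% of Jarid2 reads in the knockout and 18.1% in WT cells. In Rcor1 they held none in the knockout and 40.2% in WT cells. Over the other peaks, Jarid2 had 510.0 in KO and 710.1 in WT, and Rcor1 had 226.7 in KO and 283 in WT. The log2 ratio of the sums, WT over KO, was thus 0.75 over all Jarid2 peaks and 0.48 without its site peaks. For Rcor1 it was 1.06 over all peaks and 0.32 without the site peaks. These sums have no replicate error and were not tested.

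Among the peaks without a 7-nt or 8-nt site, 11 of 17 in Jarid2 and 12 of 18 in Rcor1 had more reads in WT cells. Their median deposited log2 ratio was 0.60 in Jarid2 and 0.45 in Rcor1, beside 0.17 over the 14369 such peaks of all genes. Over those with reads in both genotypes it was 0.34 in Jarid2 and 0.04 in Rcor1, beside 0.06 in all genes. The medians of all genes thus leaned to WT too. Of all peaks, 16.6% were listed at 0 in KO cells and 7.87% in WT cells. The share of peaks with more reads in WT cells was not counted over all genes. The excess of wild-type reads on Jarid2 lay before nt 1043 of its 1691-nt 3' UTR, and more of it beyond nt 156 than before. Leaving out the site peaks, the stretch up to nt 156 had 218 scaled reads in KO and 277 in WT. From there to nt 1043 the sums were 188 in KO and 331 in WT. Peaks 13 to 19, beyond nt 1043, had 103 in KO and 102 in WT.

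Sites of other microRNAs were also searched for in the peaks of both genes. Matches of 7 or 8 nt to 15 other microRNA families were found in 13 of the 39 peaks (33.3%, beside 33.7% of all peaks). Families beyond these 15 and miR-155-3p were not searched, and no microRNA level was measured here. No peak of either gene held a match to miR-155-3p, the other arm of the hairpin. Jarid2 and Rcor1 each had a peak matching the miR-15/16, miR-23, miR-25, miR-27 and miR-181 families. In both genes 1 peak held overlapping matches to miR-23 and miR-181. They are printed with the mature sequences (RefSeq, seeds in capitals) because these peaks had reads in KO cells, and with them the miR-181 match that precedes the miR-155 site in Rcor1 peak 18.
miR-181a-5p: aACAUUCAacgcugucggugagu
miR-23a-3p: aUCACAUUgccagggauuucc
Jarid2 peak 12, miR-23 and miR-181: cagttcttttTGAATGTGAAacacatctgt
Rcor1 peak 5, miR-23 and miR-181: gggttcttaaaaattatcAATGTGAATGTc
Rcor1 peak 18, miR-181: gtcattgtggTGAATGTccatagcattata

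Rcor1 peak 18 was the 1 peak of the 39 with both a miR-155 match and a 7-nt match to another of these families. It was listed at 0 in KO cells and held no miR-23 match. Rcor1 peak 5 and Jarid2 peak 12 had 25.3 and 21.3 scaled reads in KO cells. Both held miR-181 and miR-23 matches and no miR-155 match, so they differ from peak 18 in more than the miR-155 site. Over all peaks 1.79% held a miR-181 match and 3.05% a miR-23 match. Among all peaks 33.7% held a match to at least 1 of the 15 families. Beside that share, 1 of the 6 peaks with a miR-155 match does not set these peaks apart. How many miR-155 match peaks of other genes also match another family was not counted.

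Lists of further genes of PRC2, of LSD1-CoREST and of other corepressors were also looked at. A miR-155 match of 7 or 8 nt was in 0 of 48, 2 of 45 and 0 of 27 of their peaks, beside 1.81% of all peaks. Of 12 further PRC2 genes 10 had peaks, 48 in all, with 0 called in either direction (0 lower and 1 higher at an unadjusted p below 0.05). Over all peaks 0.574% were called lower and 0.0273% higher, and 2.72% and 1.48% at an unadjusted p below 0.05. At shares this low, 0 calls among 48 peaks do not set the list apart. Aebp2, an accessory subunit, had the most reads, 504 in the knockout and 639 in WT cells over 17 peaks. Suz12, a core subunit, had 231 in KO and 241 in WT over 10 peaks, and Mtf2, which helps to bring PRC2 to CpG-rich DNA, had 131 and 125 over 10 peaks. The median deposited log2 ratio of the 48 peaks was 0.05, beside 0.20 over all peaks.

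Of 17 further LSD1-CoREST genes 8 had peaks, 45 in all. Of these peaks 1 was called lower in the knockout (2.22%, beside 0.574% of all peaks) and 0 higher. At an unadjusted p below 0.05, 3 were lower and 0 higher, beside 2.72% and 1.48% of all peaks. The called peak was in Zmym2, a zinc finger partner of the complex, and held a 7mer-m8. It had 4.69 scaled reads in KO cells and 39.2 in WT cells (deposited log2 ratio 2.82, adjusted p = 0.000134). Rest, the transcription factor that recruits CoREST, had an 8mer in peak 9, listed at 0 in KO with 17.0 in WT (deposited p = 0.0359, adjusted p = 1.00). Gfi1, a repressor that recruits LSD1, had a 6mer in peak 7, with 52.1 in KO and 85.8 in WT (deposited p = 0.0549, adjusted p = 1.00). Zeb2, a repressor of the zinc finger homeobox family, had the smallest deposited p of the list after Zmym2 in its peak 3, which held no miR-155 match, with 6.32 in KO and 29.2 in WT (deposited p = 0.0101, adjusted p = 0.581). Over all its 6 peaks Gse1, a component of CoREST complexes, leaned the other way, with 215.9 scaled reads in KO and 118 in WT. Rest, Gfi1, Zeb2 and Gse1 were chosen after their values were seen. The median log2 ratio of the 45 peaks was 0.28. Of 11 other corepressor genes 5 had peaks, 27 in all, with a median of 0.69. Of these peaks 0 were called, and 1 was lower and 0 higher at an unadjusted p below 0.05, beside the same shares over all peaks. The most read were Tbl1xr1, a subunit of the NCoR complex, with 951 scaled reads in KO and 913 in WT, Tle4, a Groucho corepressor, with 104 and 88.1, and the deacetylase Hdac3 with 50.8 and 38.8.

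The genes most like Jarid2 and Rcor1 were sought by the share of a gene's reads in 7-nt and 8-nt site peaks, in the pooled KO and WT columns, over 302 genes with at least 10 peaks. Among the closest 3 to Jarid2 were Ski, a SMAD corepressor (1.47% of KO and 14.3% of WT reads), and Slc38a2, an amino acid transporter (2.95% and 14.8%). Closest to Rcor1 were Irf2bp2, a transcriptional corepressor (0% of KO and 34.1% of WT reads), the AP-1 subunit gene Fosl2 (0% and 33.4%), and Rc3h2, which encodes Roquin-2 (0.328% and 32.1%). Each of these 5 had 1 site peak, while Jarid2 and Rcor1 have 2. Of the 302 genes, 61 had a 7-nt or 8-nt site peak, and the share is 0 in the others. Among these 61, Rcor1 had rank 3 and Jarid2 rank 20 by this share in wild type.

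**Figure D5:**
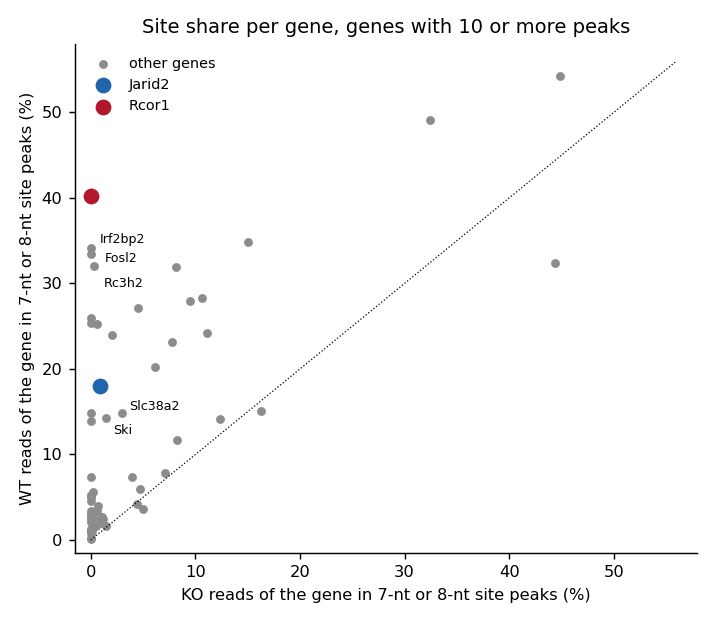
Share of a gene's scaled reads in peaks with a 7-nt or 8-nt miR-155 site, KO on the x axis and WT on the y axis, both in percent, for the 61 genes with at least 10 peaks and such a site. The dotted line marks equal shares. Rcor1 lies at 0% in KO and 40.2% in WT and Jarid2 at 0.867% and 18.1%, and 57 of the 61 genes lie above the line.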

How the data were processed

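AGO2 HITS-CLIP was made from 12 miR-155 KO and 12 WT libraries, labelled biological replicates. The submitters' processing notes name Bowtie 0.12.7 and mm9, per the labels. Not stated are the peak caller, how reads were scaled, how duplicates were handled and which test gave the p-values. The table deposited by the authors gives log2 values of the reads of each genotype, pooled over libraries, their log2 ratio and a p-value per peak. Since peaks without reads are at 0, the deposited values are taken to be log2(1 + scaled reads). Library depths are unknown, so no test across libraries and no counting interval could be made.

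A Benjamini-Hochberg adjustment of the deposited p-values across 14634 peaks, checked on simulated data, gave the calls (below 0.05). The deposited sequences, with flanks of 6 nt in 14608 peaks, were searched on the given strand for miR-155-5p matches (7-nt motifs AGCATTA and GCATTAA) and for 15 other families and miR-155-3p, with RefSeq seeds. All 39 sequences matched a GENCODE M21 transcript of their gene exactly, which gave GRCm38 positions. Positions in the 3' UTR count from the base after the stop codon, for Rcor1 1 nt more than deposited. RNAduplex (ViennaRNA 2.7.2) gave energies on whole peak sequences, and longer ones can reach lower energies. Python 3.11.15 with pandas 2.3.3 and NumPy 2.4.6 was used.

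The members, gene lists and rules were chosen with earlier results of these data known. Peaks with a match, called peaks and the 3 most-read of each gene are described singly. From each corepressor list the text names genes with a called peak, or else the 3 with the most reads, and for each member the 3 genes at the smallest Euclidean distance in site share, 1 of which is not reported here. Genes named outside these rules are marked in the text as chosen after their values were seen.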

Additional observations from a re-analysis of the deposited data

How the results depend on the processing

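Adjusted p thresholds of 0.01 and 0.1, a Bonferroni adjustment and a minimum of 10 scaled reads each left 3 peaks lower and 0 higher in the knockout. When only peaks with reads in both genotypes entered the adjustment, 1 peak was lower, Jarid2 peak 2, since the called Rcor1 peaks are listed at 0 in the knockout. The log2 ratios of the 6 peaks with a miR-155 match kept their sign without the pseudocount, where it could be left out, and when centred on the median of all peaks (0.20). Jarid2 peak 2 then had 4.85 and 4.38, and Rcor1 peak 12 had -0.35 and -0.53. The log2 ratio of the summed reads, WT over KO, fell to 0.48 in Jarid2 and 0.32 in Rcor1 without the 7-nt and 8-nt site peaks. Without the most-read peak it was 0.99 in Jarid2 and 0.70 in Rcor1. Searching without the 6-nt flanks left 4 peaks with a 7-nt or 8-nt site, counting 6mers too gave 5 and counting offset 6mers as well gave 6. No paired analysis was possible because the deposited columns pool all libraries of a genotype, and for the same reason no replicate could be left out. Pooled reads without library depth limit what can be said of peaks with few reads.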

Other observations

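The deposited p-values do not follow the pooled reads of the Jarid2 and Rcor1 peaks closely. Jarid2 peak 11, listed at 0 in the knockout with 27.6 scaled reads in wild type, has the same deposited p, 0.126, as peak 11 of the DNA methyltransferase gene Dnmt3a. That peak has the opposite direction, with 73.8 in KO and 41.6 in WT. Jarid2 peak 7, with 0 in KO and 18.7 in WT, shares its deposited p of 0.0549 with 4 other peaks, among them Gfi1 peak 7 with 52.1 and 85.8. Jarid2 peak 12, with 21.3 in KO and 52.7 in WT, and Rcor1 peak 20, with 0 and 8.30, also share a deposited p, 0.752. In all, 26 of the 39 peaks share their deposited p exactly with another peak of the table, as do 73.8% of all peaks. The 3 called peaks share theirs with none.

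Jarid2 peak 10 had the lowest predicted duplex energy with miR-155-5p of the 39 peaks, -17.6 kcal/mol, without a match to the seed. It had 16.7 scaled reads in KO and 45.5 in WT, with a deposited p of 0.990. Rcor1 peak 1, at -16.4 kcal/mol and also without a match, had 17.2 in KO and 8.49 in WT. The peaks named here were chosen after their values were seen.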
